A study of Drosophila melanogaster with 42 samples.

Results

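The Drosophila maltases and the glucosidase tobi were followed across 42 whole-body expression arrays of female flies. The 10 genes are Mal-A1, Mal-A2, Mal-A3, Mal-A4, Mal-A6, Mal-A7, Mal-A8, Mal-B1, Mal-B2 and tobi. Each was taken from the 1 set of probes (probeset) that names that gene alone, so that they make up 10 of the 11982 genes the arrays name. All 10 lay above the lowest value of the table on 42 of 42 arrays.

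Maltases are alpha-glucosidases that cut glucose from the ends of malto-oligosaccharides and from sucrose, and in insects they act mainly at the midgut surface as the last step of sugar digestion. The family grew by local duplication. In the RefSeq gene table (assembly Release 6 plus ISO1 MT) Mal-A1 to Mal-A8 are 8 consecutive genes on chromosome arm 2R, and Mal-B1 and Mal-B2 are neighbours on 2L. The gene tobi lies apart from both, on 3R, between rha and Fur1. It encodes an alpha-glucosidase of another family, is known as a target of insulin-like peptides and adipokinetic hormone in the fat body, and is known to respond to the sugar and protein of the diet. Activin signalling through the ligand daw and the sugar-responsive factors sug and Mondo are known to act on sugar-digesting genes. No source names the build behind the array annotation, so no coordinates are given. The Mal-A copies are related in sequence and could share probes, so that values of 1 Mal-A gene may hold RNA of another. For the same reason levels are compared only between groups of flies and never between genes.

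There were 14 groups of 3 arrays, each from RNA of at least 75 pooled females aged for 10 or 40 days. The arrays of a group stand for separate biological samples. For the yw/w1118 background there were 2 crosses, both with ELAV-GeneSwitch, a neuronal driver that the drug RU486 switches on. The first carried dSir2 EP2300, a line meant to raise dSir2 (Sirt1), and the second DN-Dmp53 259H, a dominant negative form of p53 that the labels call a p53 knockdown. Induced flies of either cross (dSir2 flies and DN-Dmp53 flies below) received RU486, and their uninduced sisters (dSir2 controls and DN-Dmp53 controls) received the diluent, so that the transgene and the drug cannot be told apart. The labels give all 4 sets the same diet code as the Canton-S controls. For the dSir2 cross the study names high calorie food (1.5N), but for the DN-Dmp53 cross its methods point to the cornmeal food of the survival experiments, so that a food common to both crosses is not established. Dietary restriction (DR, 0.5N food with sucrose and yeast extract at 5% each instead of 15%) was given to uninduced flies of the dSir2 cross, here DR yw/w1118 flies, and to Canton-S flies, a wild-type strain with neither transgene and with controls of its own on 1.5N food. The DR yw/w1118 and the dSir2 comparisons therefore share the same control arrays at each age. Values are log2 expression. Below, "called" means an adjusted p under 0.05 with Benjamini-Hochberg adjustment over all probesets tested in limma and a change over 1.5 fold. As the unit is the whole body, fewer cells of a type and less RNA per cell cannot be told apart.

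Facts of the arrays that touch the results were few. Array medians lay between 2.73 and 3.10, and arrays of 1 group correlated at 0.9933 or more. Of the marker lists, 11 of 11 midgut genes on the array, 10 of 10 of ovary and 5 of 5 of muscle were above the floor on every array. For fat body this held for 8 of 10 and for neuron for 4 of 6. The targeted genes did not show the labels in whole-body RNA. Sirt1 was at 11.80, 11.63 and 11.65 in dSir2 flies and at 11.99, 11.71 and 12.04 in their controls at Day 10, a change of -0.22 (SE 0.11, limma adjusted p = 0.232), and its change at Day 40 was 0.04. Of the p53 probesets the 1 above the floor changed by 0.23 in DN-Dmp53 flies at Day 10 (SE 0.07, adjusted p = 0.223) and by 0.22 at Day 40 (adjusted p = 0.304). A neuronal transgene is diluted in whole flies and whether that probeset covers the DN-Dmp53 construct is not given, so these values check little, and the names of the groups below are those of the labels.

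The largest spread among the 10 genes belonged to tobi, and nearly all of it lay among young flies. At Day 10 the means of the 7 groups ran from 6.53 to 12.24, a range of 5.71. At Day 40 they ran from 11.48 to 12.30, a range of 0.82. The Day 10 groups of the dSir2 cross were low: tobi measured 9.30, 9.12 and 9.15 in the controls, 9.12, 9.49 and 9.48 in dSir2 flies, and 5.231, 6.003 and 8.349 under DR. The other Day 10 groups were high, with 11.76, 11.39 and 11.74 in DN-Dmp53 controls, 11.18, 11.37 and 10.68 in DN-Dmp53 flies, 11.94, 12.26 and 12.52 in Canton-S controls and 9.87, 10.54 and 10.55 in Canton-S DR flies. No array of the dSir2 cross at Day 10 reached the lowest array of any other group. In the order of the 14 group means, 9 of the 13 steps between neighbours joined groups whose arrays overlap, and the top of the order was held by DN-Dmp53 flies at Day 40 (12.17 to 12.43).

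The maltases shared this pattern in part. The range of group means at Day 10 and at Day 40 was 3.40 and 0.64 for Mal-A7, 2.05 and 0.67 for Mal-A8, 1.98 and 0.77 for Mal-A4, 1.86 and 0.61 for Mal-A6, 1.75 and 0.85 for Mal-A2 and 1.60 and 0.30 for Mal-A1. The 2 values lay closer for Mal-B1 (1.27 and 0.78) and Mal-B2 (1.36 and 1.18), and Mal-A3 was as spread at Day 40 as at Day 10 (1.28 and 1.24). These ranges are descriptions of 7 means, with no test.

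**Figure D1:**
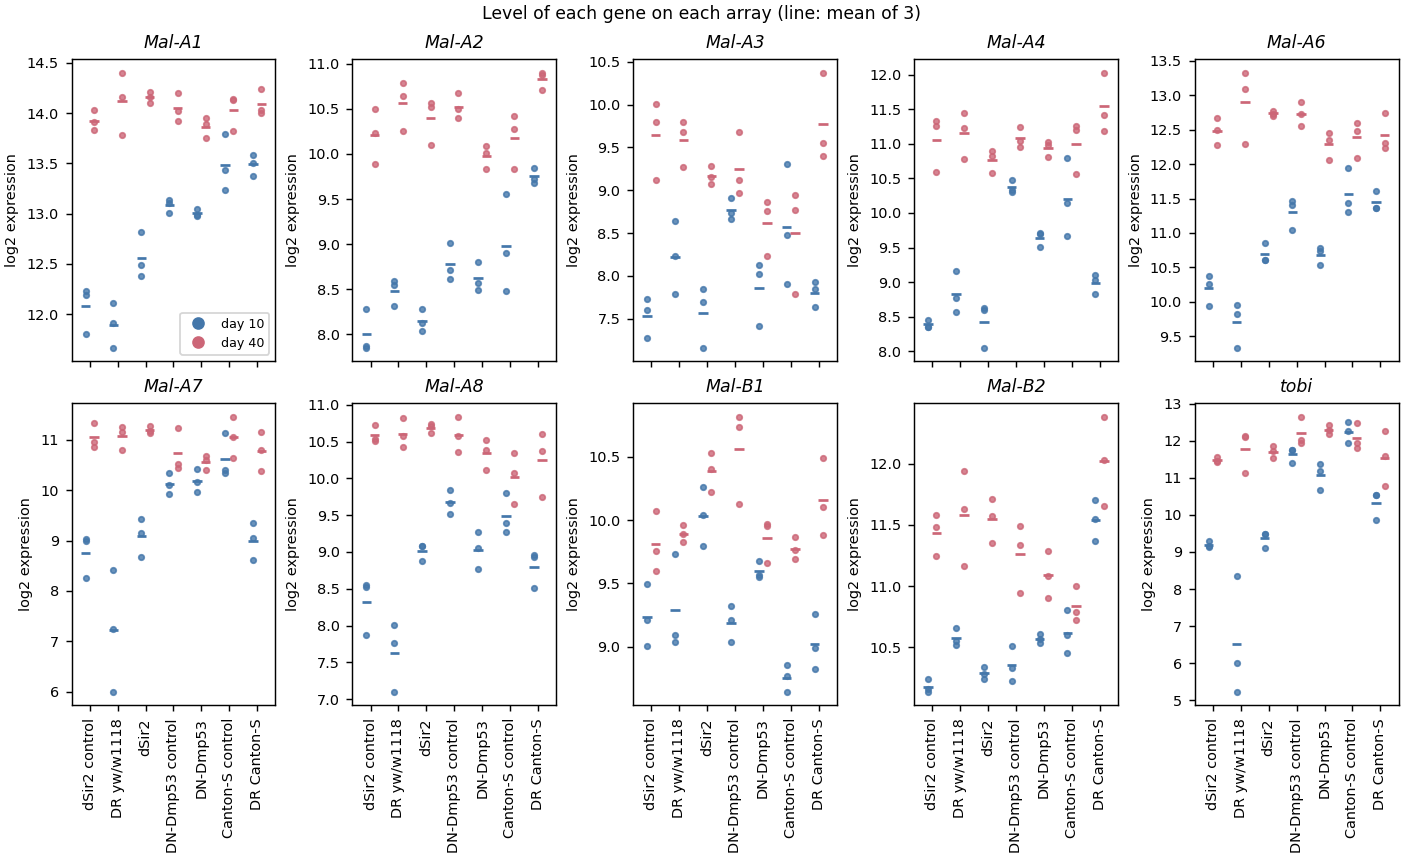
Level (log2 expression) of each gene on each of the 42 arrays, by condition (7 columns), with Day 10 in blue and Day 40 in red; each point is 1 array and each line the mean of 3. The vertical scales differ between panels; the Day 10 means of tobi run from 6.53 to 12.24 and its Day 40 means from 11.48 to 12.30.

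Age was the comparison in which most of the maltases moved, and all the calls went up. The dSir2 controls showed it in 9 of 10 genes (median change 2.24), against 15.2% of the 9541 genes tested called higher there. In the same flies Mal-A6 measured 10.37, 9.94 and 10.26 at Day 10 and 12.68, 12.50 and 12.27 at Day 40, a rise of 2.29 (SE 0.16, adjusted p = 0.000954). Mal-A6 was the clearest of the family across conditions: each of its 21 Day 40 arrays, from 12.06 up, lay above the highest of the 21 Day 10 arrays, at 11.94. The gene tobi rose by 2.29 in dSir2 controls (SE 0.07, adjusted p = 0.000241), to 11.46, 11.56 and 11.41. Mal-A4 rose by 2.67 (SE 0.22, adjusted p = 0.00135), from 8.46, 8.36 and 8.35 to 11.34, 11.25 and 10.59. The arrays of the 2 ages did not overlap for any of these genes. The 1 gene not called was Mal-B1, with a change of 0.57 (adjusted p = 0.0649).

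In the other groups of that cross the counts were as high. In dSir2 flies 9 of 10 genes rose (median 1.86), against 9.84% of 9716 genes. Here Mal-A2 rose by 2.25, from 8.28, 8.13 and 8.04 to 10.52, 10.57 and 10.10 (SE 0.16, adjusted p = 0.00429). In DR yw/w1118 flies 9 of 10 rose (median 2.27), against 4.13% of 9551 genes. The changes of tobi and Mal-A7 in that group, 5.25 (SE 0.93, adjusted p = 0.033) and 3.84 (SE 0.66, adjusted p = 0.0319), began from the low Day 10 values given for tobi and from 6.004, 7.250 and 8.415 for Mal-A7. The count for DR yw/w1118 flies rested on single arrays: it fell to 3 without Day 10 replicate 1, to 2 without Day 10 replicate 2, to 3 without Day 40 replicate 2 and to 5 without Day 40 replicate 3, while Mal-A1 and Mal-A2 were called in 6 of 6 such fits. In dSir2 controls and dSir2 flies the count stayed at 9 whichever array was left out.

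DN-Dmp53 controls had 7 of 10 genes higher at Day 40 (median 0.91), against 11.6% of 9574 genes. They differ from dSir2 controls by the uninduced construct and the stock that brought it, and a shared food or batch of arrays is not established. The rises were led by Mal-A2 (1.75, SE 0.13, adjusted p = 0.00257), Mal-A6 (1.42, adjusted p = 0.00509) and Mal-B1 (1.37, SE 0.22, adjusted p = 0.0125). The Mal-B1 arrays went from 9.32, 9.21 and 9.04 to 10.13, 10.81 and 10.73, without overlap. In this group tobi went from 11.63 to 12.20 on average, a change of 0.57 (SE 0.23, adjusted p = 0.14) that was not called. In DN-Dmp53 flies 6 of 10 rose (median 1.04), against 7.72% of 9541 genes, and tobi was among them (1.22, SE 0.21, adjusted p = 0.0226); without single arrays its adjusted p ran from 0.0233 to 0.0748.

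Canton-S flies on high calorie food had a single call. It was Mal-B1, 1 of 10 (median 0.54), against 7.44% of 9354 genes. Mal-B1 measured 8.65, 8.77 and 8.85 at Day 10 and 9.69, 9.86 and 9.77 at Day 40, a rise of 1.02 (SE 0.07, adjusted p = 0.00661) that held in 6 of 6 fits without 1 array. In these flies tobi changed by -0.17 (SE 0.24, adjusted p = 0.677), with Day 40 arrays at 11.93, 12.47 and 11.81 inside the Day 10 range or just below it. Mal-A2 (1.20, adjusted p = 0.0722) and Mal-A6 (0.83, adjusted p = 0.0727) had arrays that did not overlap between ages but missed the threshold. Canton-S DR flies had 8 of 10 genes higher with age (median 1.18), against 6.08% of 9742 genes, with Mal-A4 at 2.55 (SE 0.24, adjusted p = 0.0103), from 8.84, 9.03 and 9.10 to 11.19, 12.03 and 11.41. That count of 8 fell to 1, 2 and 2 without Day 10 replicate 1, 2 and 3 and to 5 and 4 without Day 40 replicate 1 and 2. Mal-A2 was called in 6 of 6 such fits and Mal-A4 in 5 of 6.

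Over the 7 conditions Mal-A1, Mal-A2, Mal-A4, Mal-A6 and Mal-A8 were each called higher with age in 6, the exception being Canton-S controls for all 5 genes. Mal-A3, Mal-A7, Mal-B2 and tobi were called in 4 and Mal-B1 in 3. Of 11 midgut markers 2 were called higher and 0 lower with age in dSir2 controls (median 0.52), 0 and 0 in DR yw/w1118 flies (median -0.03), 2 and 3 in dSir2 flies (median -0.11) and 1 and 0 in DN-Dmp53 controls (median -0.27). The counts were 1 and 0 in DN-Dmp53 flies (median 0.18), 2 and 3 in Canton-S controls (median -0.32) and 0 and 4 in Canton-S DR flies (median -0.40). Their summed level ran from 16.16 to 16.36 at Day 10 and from 16.54 to 16.74 at Day 40 in dSir2 controls, and from 16.53 to 16.60 and 16.04 to 16.51 in DN-Dmp53 controls. Of 10 ovary markers 5 were called lower and 1 higher with age in dSir2 controls (median -0.60). In DN-Dmp53 controls 5 were called lower and 0 higher (median -0.65). Over all genes 17.5% and 10.7% were called lower in these groups, and 15.2% and 11.6% higher. The ovary count was 2 lower in each of the DR yw/w1118, Canton-S DR, dSir2 and DN-Dmp53 flies (against 3.72 to 7.67% of all genes) and 0 in Canton-S controls. Their summed level ran from 17.26 to 17.40 at Day 10 and from 17.17 to 17.37 at Day 40 in dSir2 controls, and from 17.38 to 17.48 and 16.60 to 16.92 in DN-Dmp53 controls. Muscle markers moved both ways, with 2 of 5 higher and 2 lower in either of these control groups and 1 and 0 in Canton-S controls. Of the 9 or 10 fat body markers tested, 1 was called higher and 0 lower in dSir2 controls, dSir2 flies and DR yw/w1118 flies. The counts were 1 and 0 in Canton-S controls and 0 and 0 in DN-Dmp53 flies. In DN-Dmp53 controls and Canton-S DR flies they were 0 and 1. Nothing about fat body is read from these counts. The part of tissue composition in the age changes was not tested. Day 10 and Day 40 flies may also have been processed at different times, for which no label gives a date, and the part of that in the age changes was not tested.

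The Mal-A cluster held 1 gene that did not move with its neighbours. Mal-A5, which is not among the 10 genes and was singled out after its values were seen, lies between Mal-A4 and Mal-A6. It ranged only from 10.60 to 11.43 over the 42 arrays, its changes with age ran from -0.31 to 0.35, and it was called in 0 of 7 conditions. Small differences did pass the p threshold: its limma adjusted p in dSir2 controls was 0.0132 for a change of 0.16 and in DN-Dmp53 controls 0.00533 for a change of 0.35, both under 1.5 fold. Over the same 7 conditions the changes of its neighbours ran from 0.71 to 2.67 for Mal-A4 and from 0.83 to 3.20 for Mal-A6.

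**Figure D2:**
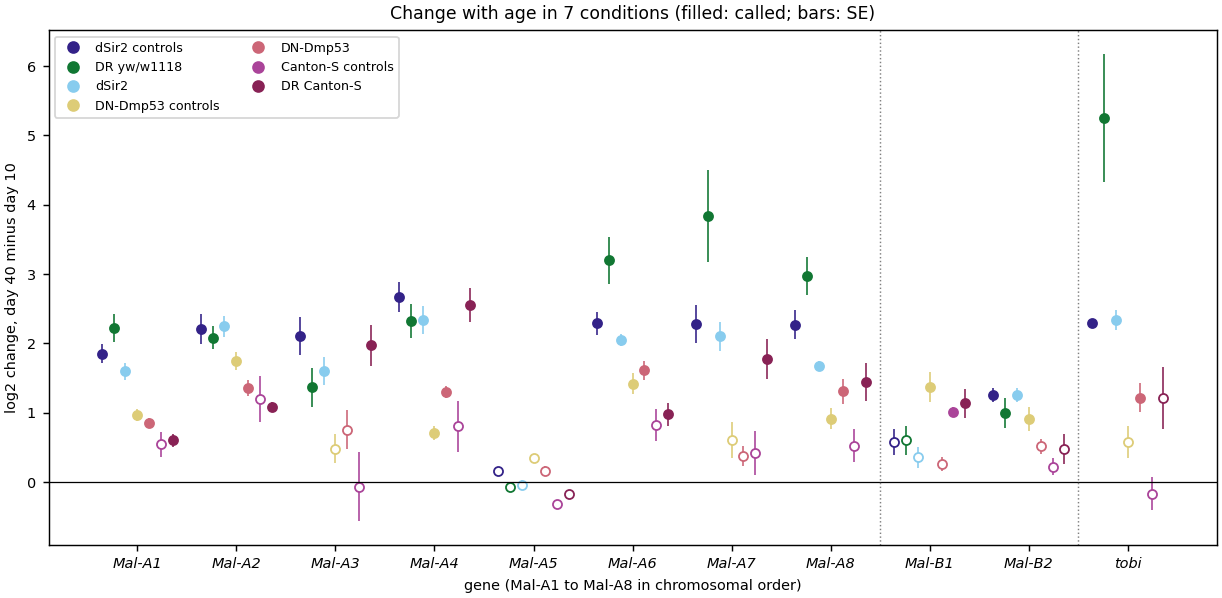
Change with age (log2, Day 40 minus Day 10) of the 8 Mal-A genes in chromosomal order, the Mal-B genes and tobi in 7 conditions; points are limma estimates from 3 against 3 arrays, bars their SE, and filled points those called. Mal-A5 stays between -0.31 and 0.35, while Mal-A4 and Mal-A6 on either side of it are called in 6 of 7 conditions.

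The Canton-S and dSir2 controls were compared to see how far the starting level depended on the flies. At Day 10, 6 of 10 genes were higher in Canton-S controls (median 1.27), against 4.49% of 9356 genes. The difference was 3.05 for tobi (SE 0.16, adjusted p = 0.00144), 1.87 for Mal-A7 (SE 0.33, adjusted p = 0.0211), 1.81 for Mal-A4, 1.41 for Mal-A1, 1.37 for Mal-A6 and 1.18 for Mal-A8. Mal-B1 went the other way at -0.48 (SE 0.14, adjusted p = 0.0774) and was not called. At Day 40 the median difference was -0.05 and 1 of 10 was called, Mal-B2, lower in Canton-S by 0.59 on the log2 scale (-0.59, SE 0.12, adjusted p = 0.0334), against 6.83% of 9565 genes. Other members differed without a call: Mal-A3 by -1.14 (means 8.50 and 9.64, SE 0.42, adjusted p = 0.128) and Mal-A8 by -0.57 (adjusted p = 0.117) lay below all dSir2 controls, and tobi above (0.59, adjusted p = 0.0992). The Day 10 count fell to 3 without Canton-S control replicate 2 and to 2 without dSir2 control replicate 3, with tobi and Mal-A1 called in 6 of 6 fits. The Mal-B2 call at Day 40 was lost without any of the 3 Canton-S controls or without dSir2 control replicate 1 or 3. The 2 control groups differ in strain, in the transgenes and in the diluent, which cannot be told apart.

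The control groups of the 2 crosses differed as well. After the values above were seen, the DN-Dmp53 controls were set against the dSir2 controls, which share the driver and the diluent. The study places both in a yw/w1118 background but calls it similar for the DN-Dmp53 flies. Each construct came from a stock of its own. The construct, the stock that brought it, the food (not established as shared) and any batch of arrays cannot be told apart in this comparison. No label for a batch exists. At Day 10, 7 of 10 genes were higher in DN-Dmp53 controls (median 1.17), against 4.65% of 9363 genes. The difference was 2.44 for tobi (SE 0.12, adjusted p = 0.003), 1.98 for Mal-A4 (10.30, 10.34 and 10.47 against 8.46, 8.36 and 8.35; SE 0.06, adjusted p = 0.000964), 1.36 for Mal-A7, 1.36 for Mal-A8, 1.24 for Mal-A3, 1.11 for Mal-A6 and 1.01 for Mal-A1. Mal-B1 (-0.05) and Mal-B2 (0.17) were not called. At Day 40, 0 of 10 were called, against 0.797% of 9665 genes in either direction. At an unadjusted p under 0.05 limma found 2 members, and the methods' t-test called 0. Without DN-Dmp53 control replicate 1 or 2 the Day 10 count of 7 fell to 3 and 4, and without dSir2 control replicate 3 to 3, while tobi, Mal-A3 and Mal-A4 were called in 6 of 6 fits. In the dSir2 controls at Day 10 the midgut markers' summed level ran from 16.16 to 16.36, below the 16.53 to 16.60 of DN-Dmp53 controls. The fat body markers' summed level ran from 17.48 to 17.58 and from 17.68 to 17.76, and 2 of 10 were called higher in DN-Dmp53 controls. The part of tissue content in the difference was not tested.

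The change with age itself differed between the control groups, again in tests added after the values were seen. Between Canton-S and dSir2 controls the interaction of age and group was called for 8 of 10 genes, all with the smaller rise in Canton-S (median -1.60), against 7.01% of 9922 genes called lower. The interaction was -2.45 for tobi (SE 0.26, adjusted p = 0.000496), -1.87 for Mal-A4 (adjusted p = 0.0158), -1.30 for Mal-A1 (adjusted p = 0.00494) and -1.03 for Mal-B2 (adjusted p = 0.00274). Mal-A2 (-1.01, adjusted p = 0.116) and Mal-B1 (0.44, adjusted p = 0.168) were not called. Between DN-Dmp53 and dSir2 controls 6 of 10 were called, all with the smaller rise in DN-Dmp53 controls (median -1.12), against 3.4% of 9997 genes. These were tobi at -1.72 (SE 0.25, adjusted p = 0.0085), Mal-A4 at -1.96 (SE 0.25, adjusted p = 0.00539), Mal-A7, Mal-A3, Mal-A8 and Mal-A1. Without DN-Dmp53 control Day 10 replicate 1 that count was 3. Both interactions and both level comparisons use the same 6 dSir2 control arrays, so that they are not independent of each other. As all 4 rest on the low Day 10 arrays of the dSir2 controls, a batch of those arrays cannot be told apart from the cross in any of them.

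**Figure D3:**
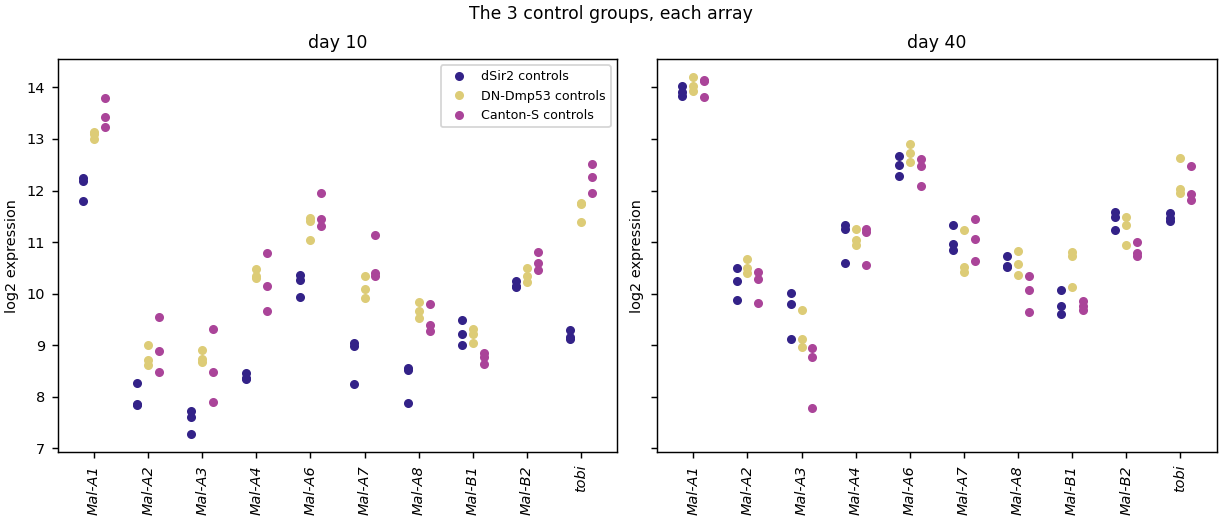
Levels (log2 expression) of the 10 genes on each array of the 3 control groups, at Day 10 (left) and Day 40 (right); each point is 1 array. At Day 10 the dSir2 controls lie lowest for tobi (9.12 to 9.30) and Mal-A4 (8.35 to 8.46); at Day 40 the Mal-A4 means are 11.06, 11.08 and 11.00, while the means of Mal-B1 run from 9.77 to 10.56, wider than from 8.76 to 9.24 at Day 10.

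Dietary restriction at Day 10 lowered tobi and part of the Mal-A group in Canton-S flies and raised Mal-B2. Of the 10 genes 4 fell, against 17.7% of 9650 genes, and 1 rose, against 17.9%, with a median of -0.40. In DR flies tobi was lower by 1.92 on the log2 scale (-1.92, SE 0.26, adjusted p = 0.00393), which is 3.78 fold. Mal-A7 measured 8.61, 9.34 and 9.05 under DR and 10.35, 10.39 and 11.13 in controls (-1.62, SE 0.31, adjusted p = 0.0112). Mal-A4 measured 8.84, 9.03 and 9.10 against 9.67, 10.14 and 10.79 (-1.21, SE 0.31, adjusted p = 0.0291). Mal-A8 was lower by 0.69 on the log2 scale (-0.69, SE 0.20, adjusted p = 0.0426). Mal-B2 was higher, at 11.37, 11.54 and 11.70 against 10.81, 10.46 and 10.60 (0.92, SE 0.13, adjusted p = 0.00453). None of these groups of arrays overlapped. With each array left out in turn tobi, Mal-A7 and Mal-B2 were called in 6 of 6 fits, Mal-A4 in 2 and Mal-A8 in 0. The count of 5 fell to 3 without any 1 of the 3 DR arrays or without control replicate 2. Mal-A3, in contrast, had overlapping arrays and a change of -0.76 (adjusted p = 0.178).

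In yw/w1118 flies at Day 10 the DR arrays of tobi and Mal-A7 scattered over a wide range and 0 of 10 genes were called, against 33.1% of 9350 genes in either direction. At an unadjusted p under 0.05 limma found 4 members, and the methods' t-test called 0. The 3 DR arrays of tobi, 5.231, 6.003 and 8.349, were all below the controls (9.12 to 9.30), a change of -2.66 (SE 0.87, adjusted p = 0.0566). For Mal-A7 they were 6.004, 7.250 and 8.415 against 9.04, 8.25 and 8.99 (-1.54, SE 0.69, adjusted p = 0.13), so that the groups overlapped. DR replicate 3 was the highest of its group for both genes and for Mal-A8, and DR replicate 1 the lowest. Without replicate 3 tobi changed by -3.57 (adjusted p = 0.00285) and Mal-A7 by -2.13 (adjusted p = 0.0364), and both were called. Mal-B2 rose by 0.40 (10.66, 10.55 and 10.52 against 10.14, 10.24 and 10.16; SE 0.05, adjusted p = 0.00312), which is 1.32 fold and short of the fold threshold. Mal-A2 was similar (0.48, adjusted p = 0.0497, 1.40 fold). Mal-A4, lower under DR in Canton-S flies, here had all 3 DR arrays above the controls (0.44, adjusted p = 0.0848), and it and Mal-A3 (0.69, adjusted p = 0.0867) were not called. Mal-A3 was called without DR replicate 2 (0.90, adjusted p = 0.038) and Mal-A2 without dSir2 control replicate 3 (0.62, adjusted p = 0.015).

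The response of Mal-A4 differed between the backgrounds at Day 10. The interaction was -1.65 (SE 0.37, adjusted p = 0.0394), with changes of -1.21 in Canton-S and 0.44 in yw/w1118 flies. It was the 1 gene of 10 called, against 1.85% of 9932 genes called lower. It was called in 2 of 12 fits without 1 array, with adjusted p from 0.0176 to 0.0902, and it was lost without any 1 of the 3 Canton-S DR, 3 yw/w1118 DR or 3 dSir2 control arrays or without Canton-S control replicate 2. Mal-B2 was called in its place without Canton-S DR replicate 1, and beside it without Canton-S control replicate 1. For tobi the interaction was 0.75 (SE 0.95, adjusted p = 0.745), and its wide error leaves the size of any difference between backgrounds unresolved.

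At Day 40 no member was called lower under DR. In yw/w1118 flies 0 of 10 genes were called, against 0.0723% of 9685 genes in either direction, limma found 0 members at an unadjusted p under 0.05 and the methods' t-test called 0. There tobi measured 11.12, 12.11 and 12.10 under DR and 11.46, 11.56 and 11.41 in controls (0.30, SE 0.31, adjusted p = 0.654). In Canton-S flies 2 of 10 rose (median 0.30), against 13.6% of 9462 genes. They were Mal-B2, at 12.03, 11.65 and 12.38 against 10.73, 10.79 and 11.00 (1.18, SE 0.21, adjusted p = 0.0159), and Mal-A2, at 10.88, 10.90 and 10.71 against 10.42, 10.28 and 9.83 (0.65, SE 0.18, adjusted p = 0.0462). Without control replicate 2 or 3 neither was called, and without any 1 of the DR arrays the count was 1. In these flies tobi was at 10.78, 12.25 and 11.58 under DR and 11.93, 12.47 and 11.81 in controls, which overlap (-0.53, SE 0.44, adjusted p = 0.419). Mal-A3 changed by 1.28 with arrays that did not overlap (SE 0.43, adjusted p = 0.0821).

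The change of the DR response from Day 10 to Day 40 was tested directly. In Canton-S flies it was called for 1 of 10 genes, Mal-A4, at 1.75 (SE 0.46, adjusted p = 0.0448; -1.21 at Day 10 and 0.54 at Day 40), against 3.29% of 9961 genes called higher. That call held in 2 of 12 fits without 1 array, those without Day 40 DR replicate 1, where tobi was called beside it, and without Day 10 control replicate 1. For tobi the value was 1.39 (SE 0.53, adjusted p = 0.132) and for Mal-A3 2.04 (SE 0.60, adjusted p = 0.0667). In yw/w1118 flies 0 of 10 were called, against 5.15% of 9945 genes in either direction, with 2 members at an unadjusted p under 0.05, and tobi was at 2.96 (SE 0.96, adjusted p = 0.1). Without Day 10 DR replicate 3 tobi was called, and without Day 40 DR replicate 1 Mal-A6 was. The interaction of DR and background at Day 40 was called for 0 of 10 genes, against 4.47% of 10084, with 2 at an unadjusted p under 0.05, of which Mal-B2 had 1.04 (SE 0.32, adjusted p = 0.103).

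**Figure D4:**
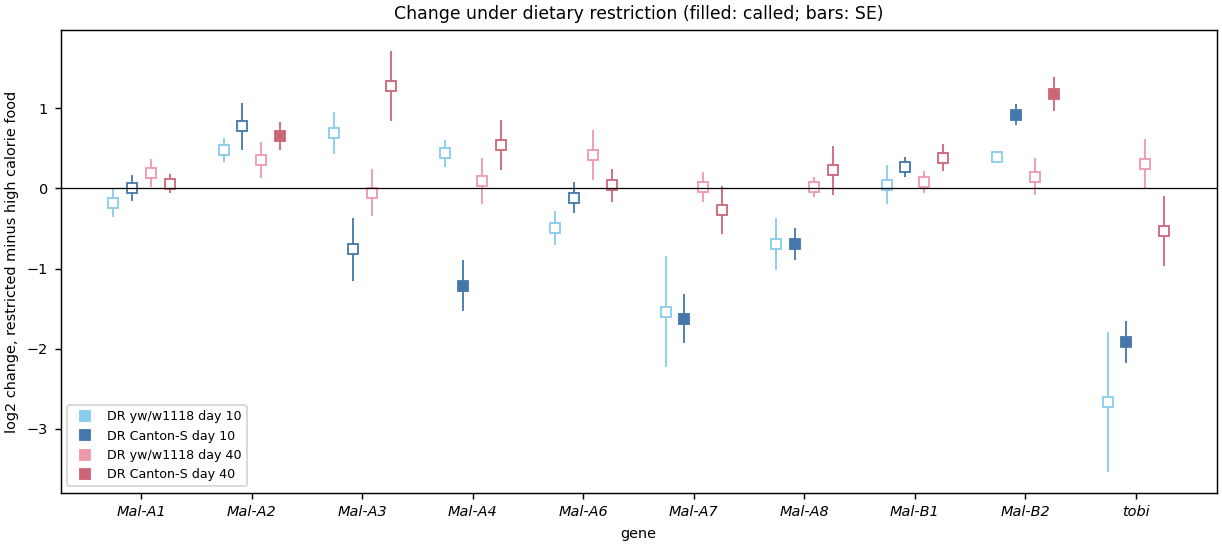
Change under DR (log2, restricted minus high calorie food) of the 10 genes in yw/w1118 and Canton-S flies at Day 10 (blues) and Day 40 (reds); points are limma estimates from 3 against 3 arrays, bars their SE, and filled points those called. At Day 10 tobi lies at -2.66 and -1.92 and Mal-A7 at -1.54 and -1.62; at Day 40 Mal-B2 in Canton-S flies lies at 1.18.

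Under DR at Day 10 the midgut markers rose while the means of tobi and Mal-A7 stood lower. Both genes were called lower in Canton-S flies only, and at Day 40 in neither background. Of 11 midgut markers 7 rose and 0 fell in Canton-S flies at Day 10 (median 1.53). Their summed level ran from 17.02 to 17.11 under DR and from 16.36 to 16.75 in controls. In yw/w1118 flies at Day 10, 9 of 11 rose (median 1.11), with summed levels of 16.92 to 16.98 against 16.16 to 16.36. At Day 40 in Canton-S flies 7 of 11 rose (median 0.94), with 16.61 to 16.75 against 16.10 to 16.20. Of the ovary markers 4 of 10 were called lower under DR in either background at Day 10 and 5 of 10 in Canton-S flies at Day 40. Of the muscle markers 5 of 5 were called higher in yw/w1118 and 4 of 5 in Canton-S flies at Day 10. The fat body, where tobi is known to act, had 2 markers higher (FASN1 and Lsd-1, of lipid synthesis and storage) and 1 lower in either background at Day 10, the latter being Lsp2, a storage protein (-6.15 in yw/w1118 and -8.71 in Canton-S flies). The summed level of its 10 markers ran from 17.60 to 17.66 under DR against 17.48 to 17.58 in yw/w1118 flies, and from 17.62 to 17.65 against 17.54 to 17.60 in Canton-S flies. Of 6 neuron markers 4 rose and 0 fell in yw/w1118 flies at Day 10, and 3 rose and 1 fell in Canton-S flies. The part of tissue composition in the maltase changes was not tested.

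Among the regulators the ligand daw and the sugar-responsive transcription factor sug were higher under DR at Day 10 in both backgrounds. The gene daw changed by 1.71 (SE 0.18, adjusted p = 0.00217) in yw/w1118 and by 2.23 (SE 0.10, adjusted p = 0.000439) in Canton-S flies. The corresponding changes of sug were 1.59 (adjusted p = 0.00194) and 2.48 (adjusted p = 0.000376). Of the 10 genes of the list of sugar and activin regulators, 2 rose and 1 fell in yw/w1118 flies (median 0.15) and 4 rose and 2 fell in Canton-S flies (median 0.28), the rises including cbt (0.94), a sugar-responsive repressor, and the falls put (-0.62 in yw/w1118 flies) and babo (-0.78 in Canton-S flies), both activin receptors. In the list of insulin and adipokinetic hormone 3 of 9 rose in either background and 0 fell. Over all genes 18.3% were called higher and 14.9% lower in yw/w1118 flies and 17.9% and 17.7% in Canton-S flies, and nothing particular to these short lists is read from their counts. AkhR, the receptor of adipokinetic hormone, changed by 1.38 and 1.76 and ImpL2, a secreted protein that binds insulin-like peptides, by 1.12 and 0.97. In the list of trehalose and glycogen 1 of 7 rose and 0 fell in yw/w1118 flies and 1 rose and 1 fell in Canton-S flies. Tps1, which makes trehalose, changed by 0.87 and 1.10. Of the sugar transporters Tret1-1, which carries trehalose, changed by 1.31 and 1.19, while the 2 probesets of Glut1 moved in opposite directions in Canton-S flies (1.26 and -0.85). At Day 40 in Canton-S flies daw (0.82) was called higher and put (-0.96) and babo (-1.23) lower among the regulators. In the insulin list 3 of 9 rose, AkhR (0.82) and ImpL2 (0.88) among them, and 1 fell, foxo (-1.60), a transcription factor that insulin signalling restrains. Of the sugar transporters 3 were called higher, sut2 (1.09), Tret1-1 (0.87) and 1 probeset of Glut1 (1.21), and the other Glut1 probeset lower (-0.61), against 13.6% of all genes called higher and 13% lower. At Day 40 in yw/w1118 flies none of the genes of these lists was called.

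With age ImpL2 was the regulator called most often, in 5 of 7 conditions. It rose in dSir2 controls (1.54, SE 0.05, adjusted p = 0.000241), DN-Dmp53 controls (1.39), Canton-S controls (0.60), dSir2 flies (1.14) and DN-Dmp53 flies (0.86). The receptor babo fell in dSir2 controls (-1.14), DN-Dmp53 controls (-1.13), dSir2 flies (-0.67) and DN-Dmp53 flies (-0.82). The amylase-related gene Amyrel, which acts on starch before the maltases, was called in DN-Dmp53 controls (1.76, SE 0.46, adjusted p = 0.049) and Canton-S DR flies (3.97, SE 0.75, adjusted p = 0.0376). GCS2alpha and GCS2beta, alpha-glucosidase subunits that trim glycans in the endoplasmic reticulum, were called in 0 of 7 age comparisons. Amy-p, Amy-d and the glycan-trimming mogs were not analysed here.

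Between dSir2 flies and their controls 1 of the 10 genes was called at Day 10. Nothing about the 10 genes as a set is read from that count. At Day 10 Mal-B1 measured 10.04, 9.79 and 10.26 in dSir2 flies and 9.21, 9.01 and 9.50 in controls, without overlap (0.79, SE 0.18, adjusted p = 0.0419), against 6.63% of 9494 genes called higher. The call was lost without any 1 of the 6 arrays, with adjusted p from 0.0581 to 0.115. Mal-A8 (0.70, adjusted p = 0.085), Mal-A6 (0.50, adjusted p = 0.0717) and Mal-A1 (0.49, adjusted p = 0.124) also had arrays above all controls and were not called. The same held by a narrow margin for Mal-B2, at 10.245 to 10.339 against 10.138 to 10.244. The change of tobi was 0.17 (SE 0.13, adjusted p = 0.423), and of the sugar and activin regulators 2 of 10 rose, daw (1.12, SE 0.14, adjusted p = 0.0101) and sug (0.95), and 3 fell, put (-1.05), Mad (-0.71), which carries the signal of related ligands, and babo (-0.61), against 6.63% of all genes called higher and 5.69% lower. Midgut markers rose in 4 of 11, with summed levels of 16.72 to 16.76 against 16.16 to 16.36, muscle markers in 3 of 5, and fat body markers in 2 of 10 with 1 lower. Of 10 ovary markers 3 were called lower and 1 higher. At Day 40, 0 of 10 were called and 0% of 9680 genes in either direction, with 2 members at an unadjusted p under 0.05 and 0 by the methods' t-test. Mal-B1, Mal-A1 and Mal-A6 were again above all controls there. How many of all genes separate in this way was not counted at either age, so nothing about the members is read from it. Mal-B1 was at 10.53, 10.41 and 10.22 against 10.07, 9.60 and 9.76 (0.57, SE 0.15, adjusted p = 0.403). Mal-A1 ran from 14.10 to 14.20 against 13.83 to 14.03, and Mal-A6 from 12.70 to 12.78 against 12.27 to 12.68. The interaction of dSir2 and age was called for 0 of 10, against 4.36% of 10097 genes, with 1 at an unadjusted p under 0.05.

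Between DN-Dmp53 flies and their controls 1 gene of 10 was called at Day 10, against 1.12% of 9395 genes called lower. Mal-A4 measured 9.72, 9.69 and 9.51 against 10.30, 10.34 and 10.47 (-0.73, SE 0.08, adjusted p = 0.0218). The replicate numbers pair the arrays of this comparison. With the pairs as a block 0 of 10 were called and the limma adjusted p of Mal-A4 was 0.0951. All other values of this paragraph come from fits without pairs. Without 1 array Mal-A4 was called in 1 of 6 fits, that without DN-Dmp53 replicate 3. Mal-A3 (-0.92, adjusted p = 0.125), Mal-A8 (-0.64, adjusted p = 0.137), Mal-A6 (-0.62, adjusted p = 0.111) and tobi (-0.55, adjusted p = 0.318) also lay below all controls, with no call. Mal-B1 (0.41, adjusted p = 0.0975) and Mal-B2 (10.53 to 10.61 against 10.22 to 10.51) lay above, again with no call. At Day 40, 0 of 10 were called, against 0.0104% of 9631 genes in either direction, with 3 members at an unadjusted p under 0.05 and 0 by the methods' t-test. Mal-B1 there lay below all controls (-0.70, SE 0.22, adjusted p = 0.324), as did Mal-A2, Mal-A3 and Mal-A6. How many of all genes lie wholly above or below their controls was not counted at either age, so nothing about the members is read from it. The interaction of DN-Dmp53 and age was called for 0 of 10, against 1.91% of 9976 genes, with 2 at an unadjusted p under 0.05, Mal-B1 at -1.11 (SE 0.25, adjusted p = 0.0705) and Mal-A4 at 0.59 (adjusted p = 0.0758). It became 1 called member without DN-Dmp53 control Day 40 replicate 1 or 2.

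Likeness between genes was described by Pearson's r over the 14 group means, among 4842 genes whose means span 1 or more. The means share groups, arrays and the step in age, and r is given as a description. Mal-A1 and Mal-A6 were most alike (r = 0.977), each the nearest gene to the other, and Mal-A6 and Mal-A8 followed at 0.961. The gene nearest to tobi, although it lies on another chromosome, was Mal-A7 (r = 0.941), followed by Mal-A8 (0.86) and Mal-A1 (0.859). The lowest mean of both tobi (6.53) and Mal-A7 (7.22) was that of DR yw/w1118 flies at Day 10. The arrays of that group scattered widely for both genes, and r without it was not computed. Outside the 10 genes the nearest to tobi were Gnmt (0.828), CG34166 (0.804) and Cyp6w1 (0.804). The nearest other genes were Obp99c, CG6495 and Cyp6g1 (0.898 to 0.916) for Mal-A1, Chchd2, CG4377 and CG34054 (0.971 to 0.973) for Mal-A2, hgo, Reg-2 and Nepl11 (0.892 to 0.911) for Mal-A3, and CG10962, CG14219 and CG7953 (0.919 to 0.944) for Mal-A4. They were PGRP-SB1, Obp99c and CG43394 (0.902 to 0.912) for Mal-A6, GstE7, CG10962 and Tsf1 (0.863 to 0.874) for Mal-A7, and CG7997, Tsf1 and GstE7 (0.905 to 0.921) for Mal-A8.

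Pairs of Mal-A genes correlated at 0.689 to 0.977, and whether shared probes bear on this was not checked. Mal-B1 was less like the Mal-A genes (0.469 to 0.639). Mal-B2 ran from 0.515 with Mal-A7 to 0.912 with Mal-A2. Mal-B1 and Mal-B2 correlated at 0.482 although they are neighbours. Mal-B2 was nearest to CG31326, Idgf5 and Gbp3 (0.959 to 0.963) and, within the family, to Mal-A2 (0.912), and its correlation with tobi was 0.419. Mal-B1 was nearest to Tep4 (0.869), Spn28Dc and Cyp309a1, and its correlations with the other members ran from 0.301 with tobi to 0.639 with Mal-A8. The highest Mal-B1 group was DN-Dmp53 controls at Day 40 (mean 10.56, arrays 10.13 to 10.81) and the lowest Canton-S controls at Day 10 (mean 8.76, arrays 8.65 to 8.85). The highest Mal-B2 group was Canton-S DR flies at Day 40 (mean 12.02, arrays 11.65 to 12.38) and the lowest dSir2 controls at Day 10 (mean 10.18, arrays 10.14 to 10.24).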

How the data were processed

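RNA of whole females was measured on 42 Affymetrix arrays in 14 groups of 3. The authors normalized the arrays by quantiles and summarized probes with GCRMA (version not given in the sources used here), and the deposited log2 expression values, which run from a floor of 2.11 to 16.22, were used unchanged. Depth has no meaning for arrays, and their number limits the precision. Of 18952 probesets 183 controls were left out, and 13647 name 1 gene in the supplied probe table, 402 several and 4720 none. There were 0 columns of other series. On each array 36.9 to 41.0% of probesets sat at the floor.

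Groups came from the sample labels. Each comparison was fitted on its own arrays with limma (version 3.58.1 in R 4.3.3), interactions on 4 groups, without those probesets whose mean did not exceed the 25th percentile in any of the groups compared. Benjamini-Hochberg adjustment ran over all probesets left. The fit was tested on simulated data. The methods' t-test (unadjusted p under 0.01, fold over 1.5) was an alternative, beside other filters, a single fit over the 14 groups, replicate numbers as a block, weights for arrays, centring, repeated quantile normalization, a mean-variance trend and leaving out each array. Same-numbered arrays deviated together in DN-Dmp53 flies and controls (correlations 0.61, 0.417, 0.758 at Day 10, and 0.295, 0.277, 0.199 at Day 40) and in the 2 yw/w1118 control groups at Day 40 (0.505, 0.252 and 0.155). These comparisons are named as paired. The values given for them come from fits without pairs, except where a block is named.

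Named genes were all members, up to 3 called genes with the largest change per pathway list, and the 3 most alike other genes per member over the 14 group means; Mal-A5, babo in Canton-S flies and repeats of a gene across comparisons were added after their values were seen. The summed level of a marker list is log2 of the sum of its linear values. The members and lists were chosen with earlier results of these data known, and both comparisons and both interactions between control groups were added after seeing the data. Python 3.11.15 with pandas 2.3.3 and matplotlib 3.10.9 wrote the tables and drew the figures.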

Additional observations from a re-analysis of the deposited data

Results flagged for a closer look

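Changes of single members that differed between groups by a test of the difference itself are listed here, all from limma with Benjamini-Hochberg adjustment over all probesets. The response of Mal-A4 to DR differed between the backgrounds at Day 10 (-1.65, adjusted p = 0.0394) and between the ages in Canton-S flies (1.75, adjusted p = 0.0448).

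The change with age was smaller in Canton-S than in dSir2 controls for tobi (-2.45), Mal-A3 (-2.17), Mal-A4 (-1.87), Mal-A7 (-1.86), Mal-A8 (-1.75), Mal-A6 (-1.46), Mal-A1 (-1.30) and Mal-B2 (-1.03), with adjusted p from 0.000496 for tobi to 0.0291 for Mal-A3. It was smaller in DN-Dmp53 than in dSir2 controls for Mal-A4 (-1.96), tobi (-1.72), Mal-A7 (-1.68), Mal-A3 (-1.62), Mal-A8 (-1.36) and Mal-A1 (-0.88), with adjusted p from 0.00539 for Mal-A4 to 0.0373 for Mal-A7. These differences rest on the low Day 10 arrays of the dSir2 controls, and a batch of those arrays cannot be told apart from the cross. With 3 arrays a group no search for single outlying arrays was made.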

How the results depend on the processing

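No change of any member turned its direction past the threshold: over all alternatives 0 calls reversed, and of 2540 values of single members under alternatives other than leaving out an array, 2373 kept their side of the threshold, 93 lost a call and 74 gained one. The cause of these moves was not tested, except that leaving the filter out adds probesets to the adjustment and a filter at the 50th percentile removes them. Counts of members called, of 10, moved as follows where they moved by over 1.5 times. With the filter at the 50th percentile they were 2 for DR yw/w1118 Day 10, 2 for dSir2 Day 10, 3 for age in Canton-S controls, 2 for Canton-S against dSir2 controls at Day 40, 3 for DR by age in Canton-S and 1 for DN-Dmp53 by age. With no filter they were 3 for DR Canton-S Day 10, 0 for dSir2 Day 10, 0 for DN-Dmp53 Day 10, 1 for DR Canton-S Day 40, 5 for age in DR yw/w1118 flies, 4 for age in Canton-S DR flies, 0 for Canton-S against dSir2 controls at Day 40, 0 for DR by background at Day 10, 0 for DR by age in Canton-S and 4 for DN-Dmp53 against dSir2 controls at Day 10. In 1 fit of all 14 groups they were 3 for DR yw/w1118 Day 10, 2 for dSir2 Day 10, 0 for DN-Dmp53 Day 10, 1 for DN-Dmp53 Day 40, 4 for age in Canton-S controls, 2 for Canton-S against dSir2 controls at Day 40, 2 for DR by background at Day 40, 3 for DR by age in yw/w1118, 3 for DR by age in Canton-S, 1 for DN-Dmp53 by age and 1 for DN-Dmp53 against dSir2 controls at Day 40. With array weights they were 1 for DR yw/w1118 Day 10, 2 for dSir2 Day 10, 2 for DN-Dmp53 Day 10, 0 for Canton-S against dSir2 controls at Day 40, 2 for DR by age in yw/w1118, 3 for DR by age in Canton-S and 1 for DN-Dmp53 by age. With each array centred on its median they were 4 for DR yw/w1118 Day 10, 1 for DR Canton-S Day 40, 1 for DR by background at Day 40, 2 for DR by age in Canton-S and 1 for DN-Dmp53 by age. The mean-variance trend gave 1 for DR yw/w1118 Day 10, and repeated quantile normalization 2 for DR by age in Canton-S. The methods' t-test gave 3 for DR Canton-S Day 10, 0 for dSir2 Day 10, 1 for DR Canton-S Day 40 and 0 for Canton-S against dSir2 controls at Day 40; after Benjamini-Hochberg it gave 0 for dSir2 Day 10, 0 for DN-Dmp53 Day 10, 1 for DR Canton-S Day 40, 5 for age in DR yw/w1118 flies, 3 for age in Canton-S DR flies and 0 for Canton-S against dSir2 controls at Day 40.

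With the replicate numbers as a block the counts were 1 for DR yw/w1118 Day 10, 0 for DN-Dmp53 Day 10, 2 for age in DN-Dmp53 controls, 0 for age in DR yw/w1118 flies, 0 for age in Canton-S DR flies, 3 for age in DN-Dmp53 flies, 1 for Canton-S against dSir2 controls at Day 10, 0 for the same at Day 40, 0 for DR by age in Canton-S, 3 for DN-Dmp53 against dSir2 controls at Day 10 and 3 for age by construct in controls. Outside the comparisons named as paired the arrays share only a number. The block moved no other count by over 1.5 times.

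With 1 array left out the count ran from 9 to 9 for age in dSir2 controls and for age in dSir2 flies, 6 to 7 in DN-Dmp53 controls, 1 to 1 in Canton-S controls, 2 to 9 in DR yw/w1118 flies, 1 to 6 in Canton-S DR flies and 4 to 7 in DN-Dmp53 flies. It ran from 0 to 2 for DR yw/w1118 Day 10, 3 to 5 for DR Canton-S Day 10, 0 to 2 for DR Canton-S Day 40, 0 to 0 for dSir2 Day 10, 0 to 1 for DN-Dmp53 Day 10 and 0 to 0 for DR yw/w1118, dSir2 and DN-Dmp53 at Day 40. It ran from 2 to 5 for Canton-S against dSir2 controls at Day 10 and 0 to 1 at Day 40, 3 to 6 for DN-Dmp53 against dSir2 controls at Day 10 and 0 to 0 at Day 40, 7 to 8 for age by background and 3 to 6 for age by construct in controls. It ran from 0 to 2 for DR by background at Day 10 and 0 to 0 at Day 40, 0 to 1 for DR by age in yw/w1118, 0 to 2 for DR by age in Canton-S, 0 to 0 for dSir2 by age and 0 to 1 for DN-Dmp53 by age. With 3 arrays a group the precision is set by their number, and changes under 1.5 fold were not called by construction.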
